A study of Mus musculus with 2 samples.

Results

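The muscle acetylcholine receptor and the proteins that gather it under the motor nerve ending were followed through 10 genes: the receptor subunits Chrna1, Chrnb1, Chrnd, Chrne and Chrng, the clustering pathway genes Musk, Lrp4, Dok7 and Rapsn, and the adhesion molecule Ncam1. The genes were listed by name, and every non-control probe whose gene name in the scanner files is one of them was taken, which gave 15 of 55680 probes. Skeletal muscle was taken from male mice of the CD2F1/Slc strain, 11 weeks old. Control mice had been injected with 100 µL of PBS. The other mice had received 1000000 colon 26 (C26) carcinoma cells, in the same volume of PBS, under the skin of the flank; C26 tumours are used to model cachexia, the wasting that accompanies some cancers. Each group is 1 array hybridised with Cy3-labelled RNA. The sources used here do not give the muscle taken, the time after implantation, or whether animals were pooled. There are no replicates, so no test was run, no p-value is given, and every value describes this pair of arrays.

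At the neuromuscular junction the nerve releases acetylcholine, which opens a ring-shaped channel of alpha, beta, delta and epsilon subunits in the adult muscle fibre. In fetal muscle and after loss of the nerve the gamma subunit takes the place of epsilon, and receptor genes that are normally read in the nuclei beneath the synapse are read along the whole fibre. The nerve also secretes agrin, which binds LRP4 and thereby activates the kinase MuSK; DOK7 is its cytoplasmic activator, and rapsyn, the product of Rapsn, ties the receptors to each other. NCAM1 is held at the synapse of innervated fibres and spreads over the surface of denervated ones, and it is also made by satellite cells, Schwann cells and, in some species, natural killer cells.

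The exchange of gamma for epsilon was read by a single probe for each gene. The probe of the fetal gamma subunit, which had the lowest ratio of the 15, is shown 5′ to 3′ and in lower case throughout.
Chrng: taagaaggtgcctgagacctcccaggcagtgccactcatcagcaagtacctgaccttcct
It runs from 89106072 to 89106353 on chromosome 1 (mm9, plus strand); its 60 bases are spread over 282 bases of genome. Exon, intron and UTR labels of the probes were not assigned, as no mm9 annotation was used here.

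Regulation of receptor genes is classically tied to letters in their promoters: E-boxes (CANNTG, the same on both strands), the sites of myogenin and its relatives, and in some of them the N-box (CCGGAA, searched on both strands), a site of ETS factors described for synaptic nuclei. RefSeq windows of 300 bases, from 250 before to 50 after the gene start on GRCm38.p6, matched 6 of the 10 genes. The windows of Chrna1, the receptor gene highest in C26, and of the adult and fetal subunit genes Chrne and Chrng are printed 5′ to 3′ on the strand of the gene, with E-boxes and N-boxes in capitals.
Chrna1, chr2:73580289-73580588, minus strand: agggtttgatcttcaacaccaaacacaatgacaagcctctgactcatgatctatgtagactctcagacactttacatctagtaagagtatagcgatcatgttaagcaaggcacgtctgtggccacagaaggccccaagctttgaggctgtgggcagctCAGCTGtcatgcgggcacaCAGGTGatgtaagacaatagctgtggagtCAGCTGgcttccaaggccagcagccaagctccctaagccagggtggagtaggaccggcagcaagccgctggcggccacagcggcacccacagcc
Chrne, chr11:70619145-70619444, minus strand: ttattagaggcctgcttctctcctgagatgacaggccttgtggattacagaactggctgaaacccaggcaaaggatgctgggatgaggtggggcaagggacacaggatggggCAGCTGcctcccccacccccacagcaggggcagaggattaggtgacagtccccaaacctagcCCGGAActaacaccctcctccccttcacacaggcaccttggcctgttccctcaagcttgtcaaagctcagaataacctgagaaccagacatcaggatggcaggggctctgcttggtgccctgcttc
Chrng, chr1:87205561-87205860, plus strand: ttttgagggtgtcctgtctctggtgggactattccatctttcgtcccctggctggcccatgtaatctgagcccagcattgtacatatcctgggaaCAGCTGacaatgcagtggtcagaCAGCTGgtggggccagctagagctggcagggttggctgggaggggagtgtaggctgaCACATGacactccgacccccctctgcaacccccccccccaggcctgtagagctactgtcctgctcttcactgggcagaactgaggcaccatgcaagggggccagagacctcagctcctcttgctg
Chrna1 and Chrng each held 3 E-boxes, of which 2 read CAGCTG, and no N-box. Chrne held 1 E-box, also CAGCTG, and 1 N-box, the only N-box among the 7 windows of the 6 genes (Dok7 has 2 windows). Chrnb1 and Musk held 3 E-boxes each, and of the Dok7 windows 1 held a single E-box and the other none. E-box letters are common: 72.3% of all 32851 promoter windows hold at least 1 and 39.6% at least 2, whereas 16.3% hold CAGCTG, 1.90% hold it at least 2 times and 14.9% hold an N-box. The E-boxes and N-boxes found did not overlap one another. These are matches of letters and do not show that a factor bound there.

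All 15 probes were printed once per array, were well above background on both arrays and were not saturated. The processed signal is an intensity in scanner units. Each array was scaled by its 75th percentile over non-control probes (a signal of 262 in the control and 249 in C26), and the log2 ratio is the scaled C26 value minus the scaled control value. The error beside a ratio is the error that the scanner software gives the spots, carried to the log2 scale. It includes a multiplicative error, a setting of 0.1 in the header of each array. For single spots well above the dim range this setting makes up nearly all of the error, which is why many ratios share an error of 0.20. A second yardstick is the spread of probes printed in at least 8 copies: the standard deviation of a ratio of single spots had a median of 0.22 for signals under 100 (57 probes), 0.10 from 100 to 1000 (124 probes) and 0.07 above (92 probes). Neither covers differences between animals or between RNA preparations. Muscle was the tissue on both arrays by its defining genes, since all 12 muscle fibre markers were measured and lay between a log2 ratio of -0.32 (Mylpf) and 0.36 (Des).

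None of the 15 probes reached a 2-fold difference in either direction, where 1.16% of the 26781 probes well above background on both arrays were higher in C26 by 2-fold or more and 1.14% lower by as much. Of all probes past 2-fold, 50.5% were higher in C26, and 66.7% with normexp background correction. Of the 15, 7 had a ratio above 0 (56.2% of all measured probes did) and 8 below 0 (43.8%). The ratio was larger than its scanner error for 9 probes, 4 above and 5 below 0, and larger than 2 times that error for 4 probes; the same held for 44.3% and 15.6% of all measured probes. Against the copies, 9 of the 15 ratios exceeded 2 standard deviations, beside 43.9% of all measured probes. The 15 ratios ran from -0.67 to 0.46, while the 5th and 95th percentiles of all measured probes were -0.58 and 0.56; Chrng alone lay outside them.

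**Figure D1:**
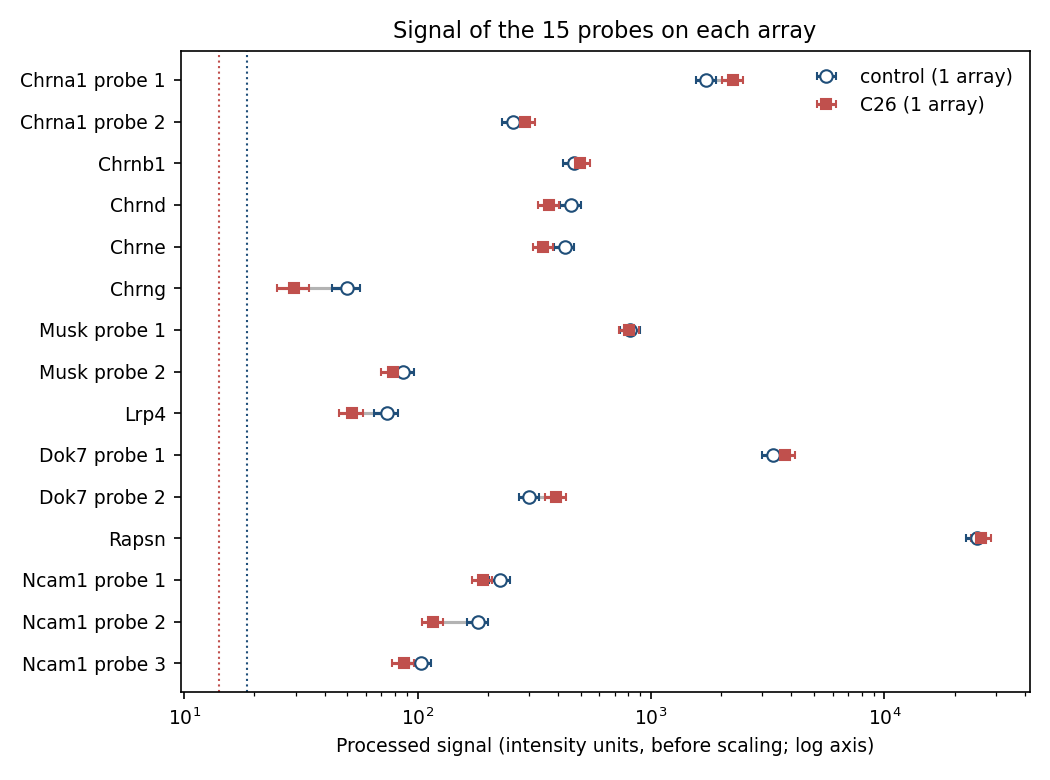
Processed signal of each of the 15 probes on the control array (open circles) and the C26 array (filled squares), on a log axis in intensity units before scaling; bars are the scanner error of the spot, and dotted lines mark the lowest signal well above background in the control (18.5) and in C26 (14.1). Probes of 1 gene are numbered from the brightest, and the widest relative gap is that of Chrng, 49.7 against 29.7.

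The 5 receptor subunit genes had ratios on both sides of 0: Chrna1 and Chrnb1 above it, Chrnd, Chrne and Chrng below it. Chrna1, the subunit that carries most of the acetylcholine binding site, had its brighter probe (chromosome 2, 73404112 to 73404171, mm9) at a signal of 1726 in the control and 2250 in C26. The C26 value was the higher one, at a log2 ratio of 0.46 (error 0.20), or 1.37-fold. The dimmer Chrna1 probe, 2723 bases away at 73401389 to 73401448, read 257 and 290, a log2 ratio of 0.25 (error 0.21). Both probes put Chrna1 higher in C26 and differed from each other by 0.21, about the size of a single error.

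Chrnb1, the beta subunit, read 468 in the control and 496 in C26. Its log2 ratio of 0.16 (error 0.20) is smaller than its error, so no difference was resolved for Chrnb1. The probe's ends lie at 69598674 and 69599242 on chromosome 11 (mm9), a span of 569 bases.

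Chrnd and Chrne, the delta and epsilon subunits of the adult receptor, were slightly lower in C26 by nearly the same amount. Chrnd (chromosome 1, 89096585 to 89096644, mm9) read 453 and 366, a log2 ratio of -0.24 (error 0.21). Chrne read 427 and 346, a log2 ratio of -0.23 (error 0.20). Each ratio is 1.16 or 1.13 times its scanner error and 2.43 or 2.37 times the spread of copies of like signal.

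Chrng, the fetal gamma subunit, was the lowest of the 15. It read 49.7 in the control and 29.7 in C26, a log2 ratio of -0.67 (error 0.31), or 1.59-fold lower in C26. It was the 1 probe of the 15 at least 1.5-fold lower, where 4.86% of all measured probes were; none of the 15 was at least 1.5-fold higher (4.48% of all). The signal is dim: the mean pixel intensity was 127 over a local background of 61.5 in the control and 106 over 64 in C26. With normexp correction of the background, run with an offset of 50, the log2 ratio was -0.28. An offset added to both signals draws the ratio of a dim probe towards 0, so this value is partly set by the offset. Chrng is the next gene after Chrnd in the RefSeq gene order of chromosome 1, with their probes 9487 bases apart in mm9.

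Differences between 2 ratios on the same arrays do not depend on a constant scaling. Of the 10 pairs of subunit genes, each by its brightest probe, 4 differed by more than 2 times their joint error, as did 17.8% of all pairs of the 19767 measured genes. The 4 pairs overlap, each holding Chrna1 or Chrng, the highest and lowest subunits. Chrna1 stood above Chrng by 1.13 (error 0.37), above Chrnd by 0.69 (error 0.29) and above Chrne by 0.69 (error 0.29), and Chrnb1 stood above Chrng by 0.83 (error 0.37). With the dimmer Chrna1 probe the gaps to Chrnd and Chrne were 0.48 each (error 0.29), under 2 times the error, and that to Chrng was 0.92 (error 0.37). With normexp correction the gap between the brighter Chrna1 probe and Chrng was 0.75 and that between Chrnb1 and Chrng 0.43. Chrne stood above Chrng by 0.44 (error 0.37), so the adult and fetal subunits were not separated beyond 2 errors. With normexp correction, whose offset draws the dim Chrng ratio towards 0, that gap was 0.03.

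**Figure D2:**
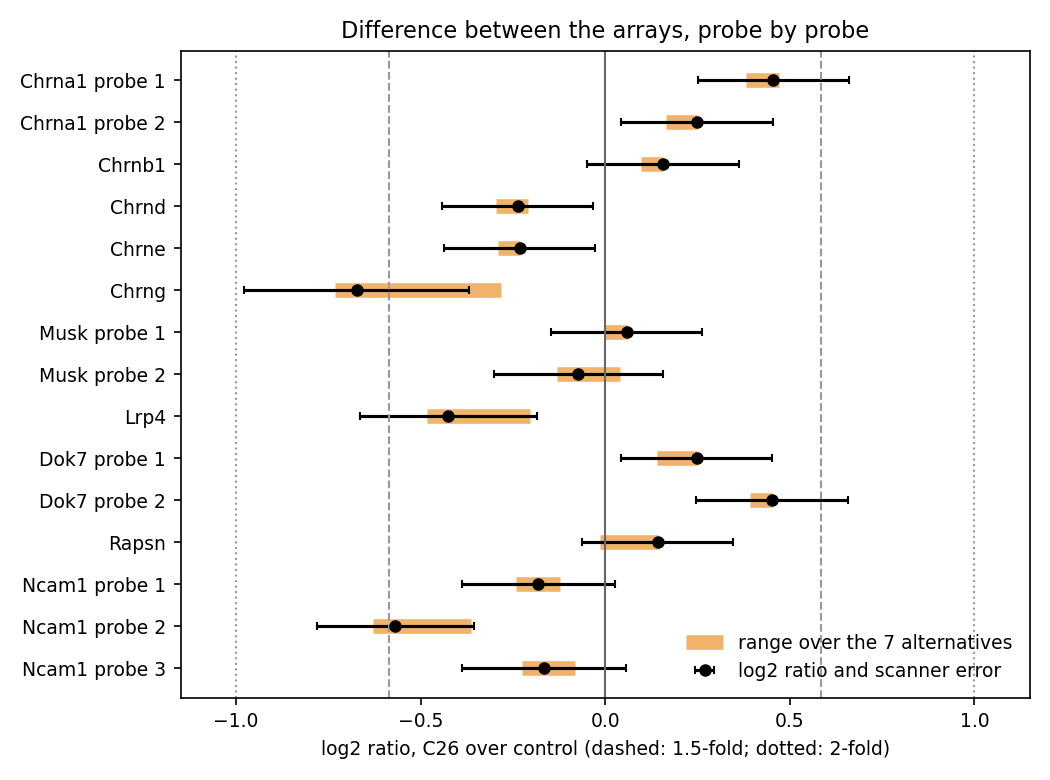
Log2 ratio of C26 over control for the 15 probes (points) with the scanner error (bars); orange bands span the 7 alternative ways of processing, dashed lines mark 1.5-fold and dotted lines 2-fold. Both Chrna1 and both Dok7 probes lie above 0, all 3 Ncam1 probes and Lrp4 lie below 0, and the Chrng band reaches up to -0.28 under normexp correction.

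Among the genes that cluster the receptor, Dok7 was the one with both probes higher in C26. Its brighter probe (chromosome 5, 35423495 to 35423554, mm9), assigned in the files to Ensembl transcripts alone, read 3333 in the control and 3762 in C26, a log2 ratio of 0.25 (error 0.20). The probe of the RefSeq mRNA, at 35430414 to 35430473, read 301 and 392, a log2 ratio of 0.45 (error 0.21), or 1.37-fold. The probes are 6919 bases apart and their ratios differed by 0.20, about 1 error.

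Musk, the receptor kinase, was close to equal on the arrays with either probe. The brighter probe (chromosome 4, 58387070 to 58387129, mm9), listed under 4 RefSeq transcripts, read 816 and 808, a log2 ratio of 0.06 (error 0.20), which was -0.00042 with the 75th percentile taken over probes well above background. The dimmer probe, listed under an Ensembl transcript, read 86.8 and 78.5, a log2 ratio of -0.07 (error 0.23), which was 0.04 with normexp correction. Its ends lie at 58386538 and 58390272, and the brighter probe falls between them.

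Lrp4, the agrin receptor, was lower in C26 by its 1 probe (chromosome 2, 91353566 to 91353625, mm9). It read 73.6 in the control and 52.2 in C26, a log2 ratio of -0.42 (error 0.24), or 1.34-fold lower, and -0.20 with normexp correction. Rapsn (chromosome 2, 90885826 to 90885885, mm9) read 24846 and 26074. Its log2 ratio of 0.14 (error 0.20) is smaller than its scanner error and 2.12 times the spread of copies of like signal. It was -0.01 with quantile normalization and -0.02 in the deposited value table.

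Ncam1 was lower in C26 by each of its 3 probes, though by different amounts. The probe at 49310320 to 49310379 on chromosome 9 (mm9), listed under 2 RefSeq transcripts, read 182 in the control and 116 in C26. Its log2 ratio of -0.57 (error 0.21), or 1.48-fold lower, is the largest of the 15 relative to its scanner error, at 2.68 times, and was -0.36 with normexp correction. The probe at 49323381 to 49323440, listed under 1 RefSeq transcript that the former does not list, read 226 and 190, a log2 ratio of -0.18 (error 0.21). The probe at 49351182 to 49351241, listed under all 3 of these transcripts, read 103 and 87.3, a log2 ratio of -0.17 (error 0.22), and -0.0815 with normexp correction. The 3 ratios averaged -0.31 (SD 0.23 between probes) and all lay below 0. Those of -0.18 and -0.17 were smaller than their errors, so no difference was resolved for these probes.

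The direction of a ratio went with the brightness of the probe. Of the 7 probes dimmer than the median measured probe, 6 had a ratio below 0, and of the 8 brighter ones 6 had a ratio above 0; over all measured probes, 49.9% of the dimmer and 62.5% of the brighter ones had a ratio above 0. After loess on the mean signal, which takes out a trend with signal common to all probes, 1 of the 7 dimmer and 6 of the 8 brighter probes were above 0. The part of signal level in these ratios was not tested further.

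**Figure D3:**
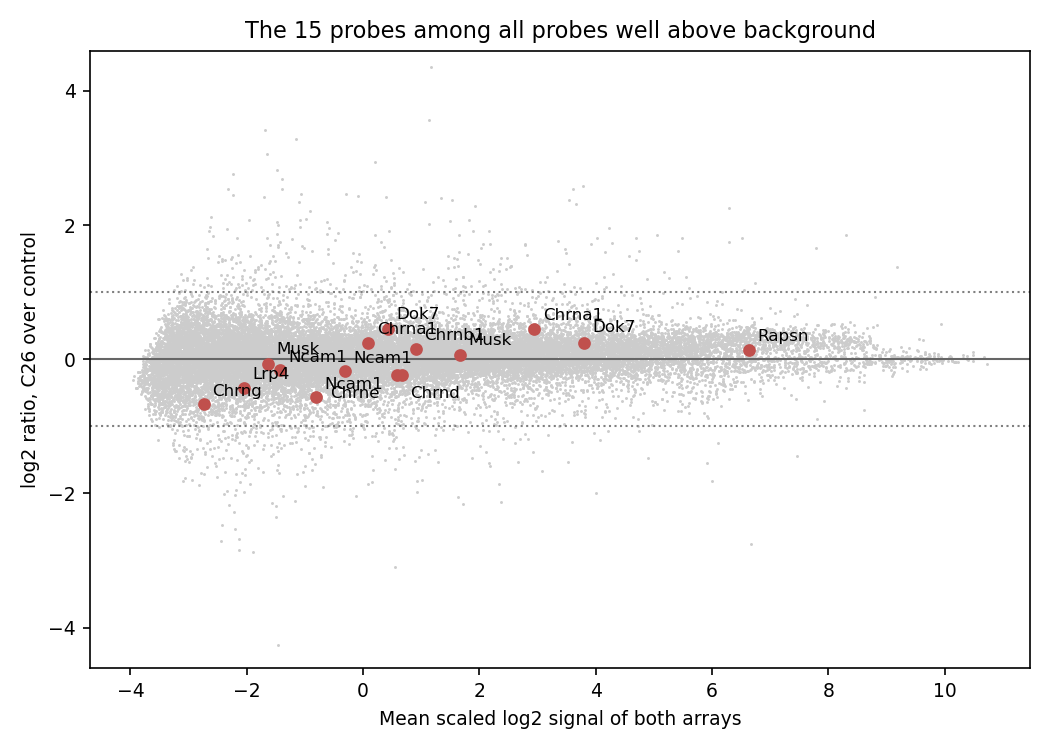
Log2 ratio of C26 over control against the mean scaled log2 signal of both arrays, for all 26781 probes well above background on both arrays (grey) and the 15 probes of the receptor and junction genes (red); dotted lines mark 2-fold. The 15 lie within the grey cloud, with Chrng lowest and the brighter Chrna1 probe highest.

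The other genes of the junction, 32 synaptic genes with each gene taken by its brightest probe, differed as little. Of these, 26 were measured, 10 above and 16 below 0, with a median log2 ratio of -0.05; the 10 receptor and clustering genes had a median of -0.06 and all 19767 measured genes one of 0.04. Over all measured genes 56.4% lay above and 43.6% below 0. None of the 26 was higher or lower by 2-fold or more, where 1.24% and 1.16% of all measured genes were. At 1.5-fold, 1 of the 26 was lower (4.82% of all measured genes) and none higher (4.36%). Nes, the intermediate filament nestin that gathers under the synapse, was lowest at -0.73 (error 0.20), from 1303 to 748. Ache, the acetylcholinesterase that ends transmission, had -0.43 (error 0.21), with a second probe at -0.50, and its collagen anchor Colq had -0.27, with a second probe at -0.15. Agrn, the agrin gene, stood at -0.17 (error 0.20). Highest were Sntb1, a syntrophin, at 0.47 (error 0.29) and Lama5, a laminin chain of the synaptic basal lamina, at 0.37 (error 0.20). The N-box binding gene Gabpa and its partner Gabpb1 had -0.10 and -0.31, though a second Gabpa probe gave 0.20. Neuregulin signalling genes Nrg1, Erbb3 and Erbb4 were not well above background on either array. Erbb2, of the same list, was measured and read 112 and 122, a log2 ratio of 0.19 (error 0.07).

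Genes of the denervation response had mostly higher values in C26. Of 18 listed, 17 were measured, 13 above 0 (56.4% of all measured genes were), with a median log2 ratio of 0.95. By 2-fold or more, 7 were higher and 1 was lower, where 1.24% and 1.16% of all measured genes were. Myog, the myogenin gene whose product acts at receptor E-boxes, read 478 and 973, a log2 ratio of 1.099 (error 0.06, smaller because the probe is printed in several copies). Gadd45a, a growth arrest gene, stood at 1.23, Myod1 at 1.42 and Tnfrsf12a, the TWEAK receptor, at 1.32. Hdac4, a deacetylase that links loss of nerve activity to Myog, had 0.95 (error 0.20). Cdkn1a, Trim63 and Fbxo32, at 1.85, 1.75 and 2.58, complete the 7; they are general atrophy genes also driven by FoxO factors and glucocorticoids. Lower in C26 were Hdac9, which read 228 and 72.1, a log2 ratio of -1.59 (error 0.22), and Runx1, a factor induced by denervation, at -0.71 (error 0.23). The list took no account of the direction in which denervation moves each gene. It was also chosen with earlier results of these data known, so its counts and median do not measure a response. The embryonic myosin gene Myh3 had -0.29, and Kcnn3, a channel gene of denervated fibres, had 0.07, smaller than its error. Higher Myog and Hdac4 stood beside a Chrna1 that was 1.37-fold higher by its brighter probe and 1.19-fold by its dimmer one. Whether these values are linked was not tested. Chrng, Ncam1 and Runx1 had ratios below 0. That of Chrng was -0.67 (error 0.31) with the main scaling and -0.28 with normexp correction, for which no error was computed. That of the brightest Ncam1 probe, -0.18 (error 0.21) with the main scaling, was smaller than its error. Dach2, a repressor of Myog, passed the background limit in C26 and not in the control, and no bound on its fold could be given.

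**Figure D4:**
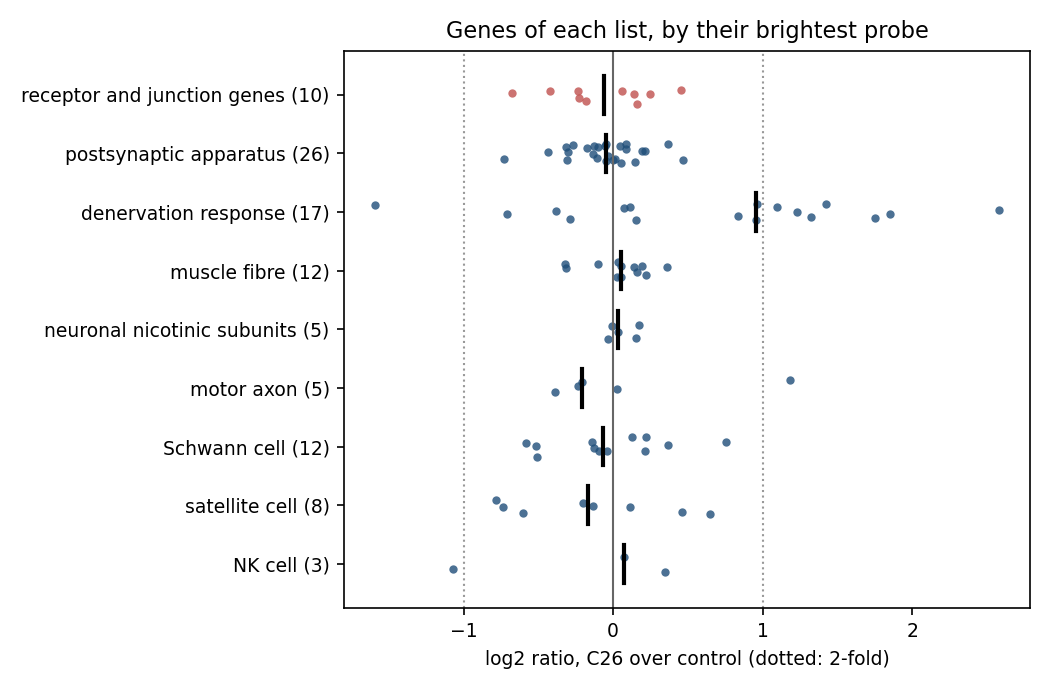
Log2 ratio of C26 over control for the measured genes of each list, each gene by its brightest probe (points); black bars are the medians, dotted lines mark 2-fold, and the number of measured genes stands in parentheses. The receptor and junction genes and the other postsynaptic genes have medians of -0.06 and -0.05, and the denervation response list one of 0.95. The lists were chosen with earlier results of these data known.

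Nicotinic subunits of the nervous system were mostly near background. Of 11 genes, 5 were measured by their brightest probe, with log2 ratios from -0.03 (Chrna2) to 0.17 (Chrna4), and the brighter of the probes named Chrna9 stood at 0.15. That probe is assigned to Ensembl transcripts and to no RefSeq mRNA, so it is not known whether its signal is that of the Chrna9 mRNA. The probe of the RefSeq mRNA differed from it and is described under the closing observations.

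In bulk RNA, fewer cells of a type and less RNA per cell cannot be told apart. Of 14 motor axon genes, 5 were measured, with a median log2 ratio of -0.21 (-0.05 with normexp correction, and -0.37 where dim probes were kept in). The neurofilament gene Nefh and the growth cone gene Gap43 passed the background limit in the control and not in C26, and were at least 1.83-fold and 1.75-fold lower in C26, the dim value being set at the lowest signal well above background on its array or its own, whichever was higher. Of the same list, Slc5a7, Isl1, Mnx1, Nefl, Nefm, Syt1 and Syt2 were not well above background on either array. The summed signal of the list was 5903 in the control and 4840 in C26, most of it Snap25 at 5433 and 4398. Which cells the RNA of this list came from was not tested, so its values are not a measure of motor axons. Slc18a3, the vesicular acetylcholine transporter, read 47.1 and 102, a log2 ratio of 1.18 (error 0.25), and Chat, the enzyme that makes acetylcholine, 107.1 and 77.8, a log2 ratio of -0.39 (error 0.22). Schwann cell genes had a median of -0.07 over 12 of 14 and summed signals of 10363 and 9488; Ngfr stood at 0.75, Mbp at 0.36, and Egr2 and S100b at -0.58 and -0.52. Cdh19, a Schwann cell cadherin, passed the background limit in C26 and not in the control, from 13.8 to 35.3, a difference of at least 2.01-fold. Satellite cell genes had a median of -0.17 over 8 of 9 (-0.092 with normexp correction), with summed signals of 11378 and 12000 of which Itga7 made up most; Cdh15 and Sdc4 stood at 0.65 and 0.46, Calcr and Heyl at -0.78 and -0.73, and Pax7 at -0.20 (error 0.25). Both lists hold genes that, like Ncam1, were lower in C26, and their part in the Ncam1 values was not tested. The natural killer cell markers Ncr1, Klrb1c, Klrk1, Klra8 and Eomes were not well above background on either array; Gzma, at -1.07, was the 1 of 3 measured genes of that list past 2-fold, with Prf1 at 0.35 and Nkg7 at 0.07.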

How the data were processed

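Gene expression in skeletal muscle was measured on 2 one-colour Agilent arrays, 1 control and 1 C26. Per the file headers, the authors read the scans with Agilent Feature Extraction 10.7.1.1 (the submitters' processing notes list 9.5.1.1); the deposited scanner values are linear intensities per spot, background-subtracted and detrended within the array, with probe positions on mm9. A deposited table of 1 intensity per probe lay within 0.01 log2 of the quantile-normalized signal for 99.3% of probes on each array; the sources used here do not say how it was made.

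Spots flagged as outliers were left out (110 control, 91 C26), log2 values were averaged over the spots of each probe, and the 75th percentile over non-control probes was subtracted. A probe counted as measured where most of its spots were well above background on both arrays. On the control array 50.4% of spots were well above background, and 53.8% on the C26 array. With 1 array per group no test was run; 2-fold was the fixed size, and the number of arrays limits the precision. Lists took each gene by its brightest probe, with 30816 probes named through the RefSeq table (GRCm38.p6, names and gene order alone). All probes of the 10 genes, and of each list the genes past 2-fold and examples from the 2 highest and 2 lowest measured, are named, with further genes of known role chosen after their values were seen. The genes and lists were chosen with earlier results of these data known. The scaling was tested on simulated data. Alternatives were normexp (offset 50), quantile, loess (span 0.3), median scaling, the percentile over measured probes, the deposited table, outlier spots kept, 1.5-fold, no filter on dim probes, and the mean over probes. Python 3.11.15, numpy 2.4.6, pandas 2.3.3, R 4.3.3 and limma 3.58.1 were used. Protein identity among the subunits was not analysed here. Some items are not reported here.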

Additional observations from a re-analysis of the deposited data

How the results depend on the processing

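No paired analysis was possible because each group holds 1 array. No probe of the 10 genes was at least 2-fold different under any of the 7 alternative treatments of the signal; at 1.5-fold, the count lower in C26 was 1 (Chrng). Of 105 values of the 15 probes under these alternatives, 1 moved by more than its scanner error, that of Chrng with normexp correction (-0.28). The sign held for 12 probes and turned for Rapsn and both Musk probes. The count above 0 lay between 6 and 8, and the median of the 10 genes by their brightest probe between -0.12 and -0.0353. Over all measured probes the scalings moved the median by at most 0.06, and the share of higher among those past 2-fold, 50.5%, was 66.7% with normexp and between 41.9% and 46.5% with the other scalings that differ from it. The median of the postsynaptic list was -0.0899 with quantile normalization, -0.0902 with median scaling, -0.0947 in the deposited table, -0.0992 with loess and -0.105 with the percentile over measured probes. That of the denervation response list was 0.83 with normexp, 0.89 with quantile normalization and in the deposited table, 0.90 with loess, with the percentile over measured probes and with no filter on dim probes. Ratios of dim probes such as Chrng and Lrp4 are limited by signal over background, and the normexp offset draws them towards 0.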

Other observations

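Chrna9, a nicotinic subunit known best from hair cells of the inner ear, gave different values with its 2 probes, which were singled out after their values were seen. The probe matched to the RefSeq mRNA (chromosome 5, 66368450 to 66368509, mm9) read 17.6 on the control array, where it was not well above background, and 201 on the C26 array. Its mean pixel intensity was 95 over a local background of 68 on the control array and 275 over 67 on the C26 array. With the main scaling the C26 value was at least 11.4-fold higher. Among the 2489 probes that only the C26 array measured well above background, 162 had a bound of at least 2-fold. A bound of the size of the Chrna9 one or more was found for 2, this one included. The bound does not hold for every treatment of the background. With normexp correction, whose offset draws ratios of dim probes towards 0, the log2 ratio was 1.78, a smaller difference than 11.4-fold. With the other alternatives it lay between 3.53 and 3.59. As the control spot lies under the background limit, these ratios do not measure the size of the difference. The other probe (66335518 to 66335577), assigned in the files to Ensembl transcripts alone and 32932 bases away, read 12734 and 13444, a log2 ratio of 0.15 (error 0.20), and as the brighter one it stood for the gene in the list of nicotinic subunits. Whether this probe reads the Chrna9 mRNA is not known, so its values may not be those of the gene. Each probe is a single spot on each array.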
